A study of Bos taurus with 6 samples.

Results

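The genes described here build, use or regulate the glutathione and thioredoxin systems of rumen epithelial primary cells (REPC), and the comparison asks how their transcripts changed post butyrate treatment. They were chosen by name from the gene tables: the glutathione S-transferases (GST and MGST), glutathione peroxidases (GPX), peroxiredoxins (PRDX), thioredoxins with their reductases and inhibitor (TXN, TXNRD, TXNIP), superoxide dismutases (SOD), catalase (CAT), GCLC, GCLM, GSR, NQO1, HMOX1, NFE2L2 and KEAP1. This gave 54 gene entries under 49 names, of 32183 entries listed. GSTA3, GSTM1, GSTO1, GSTP1 and SOD2 each stood on a pair of entries, which are numbered 1 and 2 here by position. The cells came from 1 Holstein bull calf, 2 weeks old and fed milk replacer only. The butyrate group was 3 cultures kept for 24 h in medium with 5 mM butyrate, a short-chain fatty acid of rumen fermentation that inhibits histone deacetylases, and the control group was 3 cultures without it, for which the labels give no duration. All cultures descend from that calf, so p-values measure the spread between cultures of its cells and not between animals.

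As background, glutathione is a small thiol made from glutamate, cysteine and glycine, and glutamate-cysteine ligase, a catalytic subunit (GCLC) with a modifier subunit (GCLM), carries out the rate-limiting step. GPX enzymes spend glutathione to reduce peroxides, GSR restores it with NADPH, and GSTs couple it to electrophiles, while peroxiredoxins reduce peroxides with electrons from thioredoxin. The transcription factor NRF2, encoded by NFE2L2, drives many of these genes, and KEAP1 marks NRF2 for degradation. The rumen epithelium faces fermentation products and plant compounds on its lumenal side, and conjugation and peroxide removal are among its known tasks.

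Expression was measured as FPKM, fragments normalized for transcript length and for the size of the library, so levels can be compared between genes per length. Totals over all entries ranged from 678035 to 681912 FPKM for control cultures and from 619401 to 629037 for treated ones. The tables hold FPKM and no counts, so the reads behind a value could not be computed from them. In bulk RNA, fewer cells of a type and less RNA per cell cannot be told apart. Of the defining epithelial markers, KRT8 was at 1309 to 1416 FPKM in control and CDH1 at 48.4 to 51.4, but EPCAM was at only 0.406 to 0.737. The 10 fibroblast markers had a summed level of 4356 to 4512 FPKM in control and 6374 to 6715 post butyrate, where 8 of the 8 tested rose, and VIM and COL1A1 had the highest levels. PDGFRA reached at most 1.15 FPKM and LUM at most 0.662, with PDGFRB and FAP lower still. The 12 epithelial markers were at 2555 to 2670.4 and then 5320.2 to 5417, with 9 higher and 1 lower. KRT8 and KRT19 had the highest levels of these, and the mean of KRT19 went from 492 to 1953 FPKM. CDH1, at a mean of 49.8 and then 48.9, and DSP were neither higher nor lower, and KRT5 was the lower one. The 5 smooth muscle markers, of which 4 fell and 1 rose, went from between 6468 and 6796 to between 2849 and 3456. Nearly all of that sum was ACTA2, TAGLN and CNN1, while DES reached at most 1.89 and MYH11 at most 0.973 FPKM in any culture. The 6 leukocyte markers summed to at most 9.48 and the 4 endothelial markers to at most 8.43 FPKM in any culture, with PTPRC and CDH5 at 0 in all 6. The part of these shifts in the results below was not tested.

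Butyrate moved most of these genes, in both directions. A mean of 0.1 FPKM or more, the minimum for testing, was reached by 51 of the 54 entries, while GSTA5, GPX5 and the second GSTA3 entry fell under it. In the tested set 25 entries rose and 17 fell at a Benjamini-Hochberg adjusted p under 0.05 in limma, and 9 did not pass, so that 82.4% were called against 58.4% of all tested entries. Butyrate changed the transcriptome broadly, and 32.5% of all 15813 tested entries rose and 25.9% fell by the same rule. Calls were commoner at high levels: 74.0% of all entries with a mean FPKM of at least 10 were called in either direction, as were 35 of the 40 members at that level. The butyrate and control groups did not overlap for 42 members, against 65.0% of all tested entries. A call with a change of at least 1 on the log2 scale was reached by 15 of the 51 tested members, which is 29.4%, against 25.2% of all tested entries. The DEG thresholds of the study, a Bonferroni-corrected p under 0.05 with a log2 fold change beyond 2, were used there with Cufflinks. Applied here to the limma fit, they were met by 6 rises (GSTT2, GPX3, GSTM3, GSTA2, the second GSTM1 entry and TXNIP) and by 0 falls. By the same rule 2.46% of all tested entries rose and 1.51% fell. These calls are not the study's own DEG list. The median log2 fold change of the members was 0.28, beside 0.10 over all tested entries. Rescaling each culture to TPM moved the median of all entries up by 0.12 and quantile normalization moved it down by 0.13, but some members moved further. Member log2 fold changes shifted by 0.08 to 0.64 under TPM rescaling, and by -0.73 for GPX2 to 0.31 for TXN under quantile normalization.

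**Figure D1:**
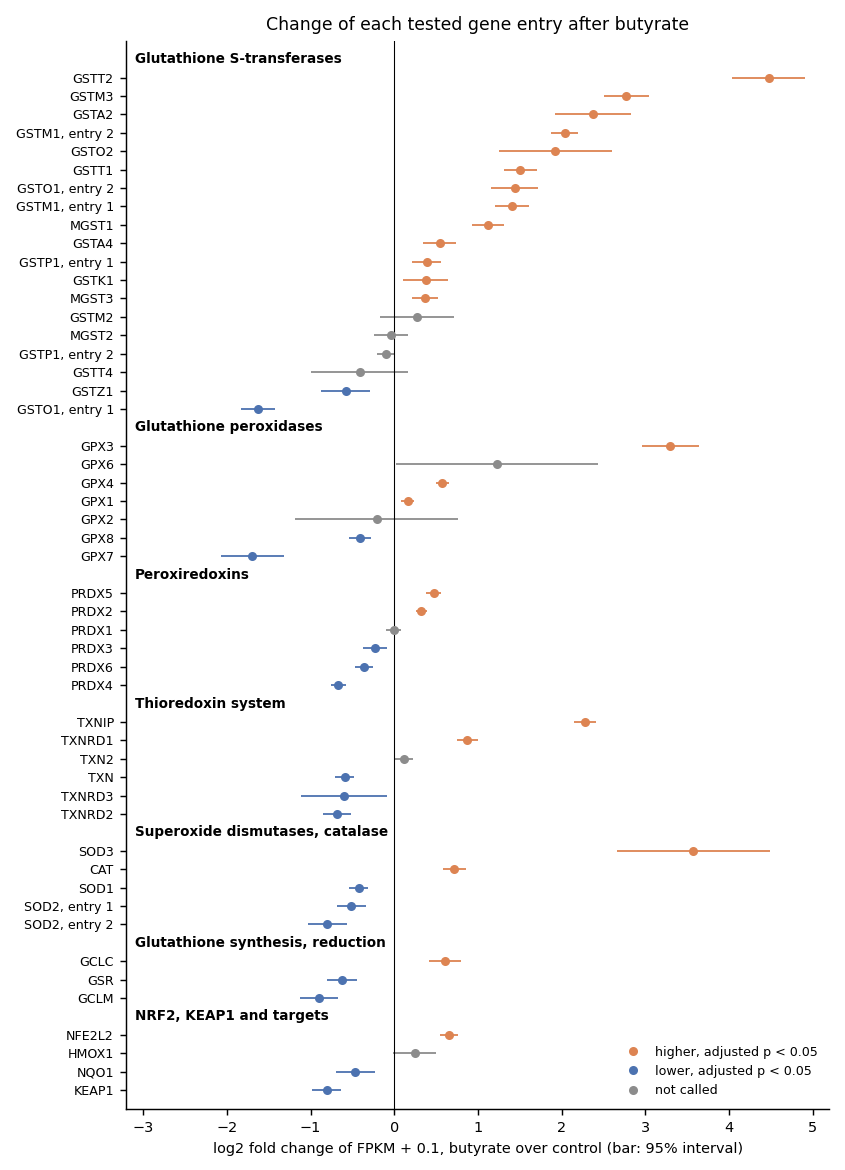
Log2 fold change of FPKM + 0.1, butyrate over control, for 50 tested entries in 7 groups, with 95% intervals from limma, coloured by call (3 cultures per group). The largest rise is 4.47, for GSTT2, and the peroxiredoxins stay between -0.67 and 0.47; the first GSTA3 entry, listed at 0 in every control culture, is left out.

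The regulator pair moved apart. NFE2L2 (UMD3.1, as for all positions given here, chromosome 2 from 19510818 to 19692054) had FPKM values of 60.0, 59.7 and 59.8 in the control cultures and 94.3, 97.4 and 91.1 post butyrate. Its mean went from 59.8 ± 0.110 (SD, n = 3) to 94.3 ± 3.17 (SD, n = 3), a 1.58-fold rise (log2 fold change 0.65, standard error 0.05, limma with Benjamini-Hochberg adjusted p = 6.1e-06). KEAP1 (chromosome 7 from 16235798 to 16244768), the adaptor that holds NRF2 for ubiquitination, fell from 65.7, 73.2 and 73.8 to 40.9, 37.2 and 43.5 FPKM, which was 1.75-fold lower (log2 fold change -0.81, standard error 0.08, limma with Benjamini-Hochberg adjusted p = 2.7e-05). Within a culture, the ratio of NFE2L2 to KEAP1 FPKM was 0.912, 0.816 and 0.811 in control and 2.30, 2.62 and 2.10 post butyrate, so KEAP1 was the more abundant transcript in every control culture and NFE2L2 in every treated one. FPKM of an mRNA does not measure NRF2 protein, whose level is known to be set mainly by degradation. KEAP1 shares 654 bases with an unnamed locus at 0.701 FPKM or less on average, and NFE2L2 spans another at 0.0359 or less.

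Genes known as NRF2 targets did not move as a block. NQO1, a quinone reductase, had values of 12.6, 11.3 and 13.4 in control and 8.94, 8.40 and 9.52 post butyrate, 1.39-fold lower with no overlap between the groups (log2 fold change -0.46, standard error 0.10, limma with Benjamini-Hochberg adjusted p = 0.00386). HMOX1, the inducible heme oxygenase, was at 14.4, 17 and 15.5 and then 16.8, 21.4 and 17.6 FPKM. Its groups overlapped and it did not pass the test (log2 fold change 0.24, limma, Benjamini-Hochberg adjusted p = 0.0902). GCLC and TXNRD1, which are also reported targets, rose, whereas GCLM and GSR fell.

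The subunits of glutamate-cysteine ligase changed in opposite directions. GCLC (chromosome 23 from 6921932 to 6966560) rose from 12.2, 13.1 and 11.5 to 17.7, 19.6 and 18.9 FPKM, 1.53-fold (log2 fold change 0.61, standard error 0.08, limma with Benjamini-Hochberg adjusted p = 2.7e-04). GCLM (chromosome 3 from 49741374 to 49762680) fell from 14.3, 13.0 and 12.9 to 7.80, 7.04 and 6.62, 1.88-fold (log2 fold change -0.90, standard error 0.10, limma with Benjamini-Hochberg adjusted p = 7.7e-05). Neither gene's groups overlapped. The GCLC to GCLM ratio was 0.851, 1.00 and 0.888 in the control cultures and 2.27, 2.78 and 2.86 in the treated ones, a shift from near parity to more than 2 GCLC transcripts, per length, for each of GCLM. GSR, which recycles oxidized glutathione, fell from 30.1, 25.9 and 28.1 to 18.9, 17.7 and 17.8 (log2 fold change -0.62, standard error 0.08, limma with Benjamini-Hochberg adjusted p = 1.6e-04). These ratios use 2 genes of the same culture and are given as a description, with no test.

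**Figure D2:**
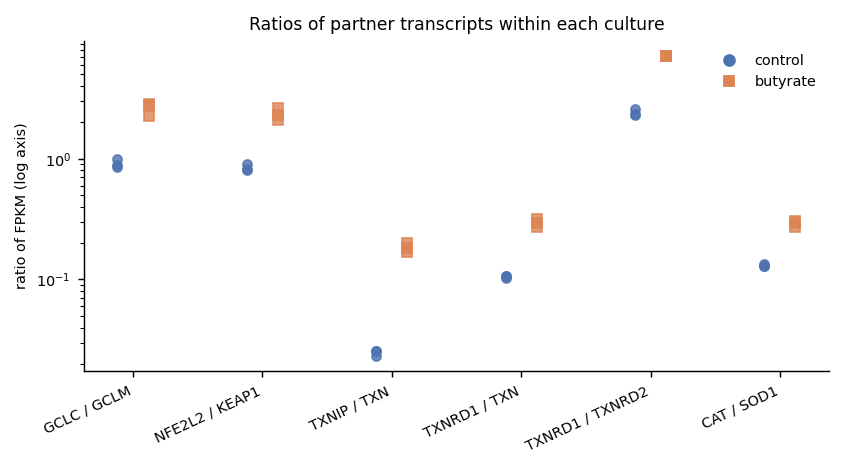
Ratio of the FPKM of 2 partner genes within each culture, on a log axis, with 1 point per culture (circles control, squares butyrate). The upper gene of each of the 6 pairs was called higher and the lower gene lower, with no overlap between groups. It follows from this choice that all butyrate cultures lie above all control cultures, from 0.0231 to 0.0258 against 0.168 to 0.199 for TXNIP over TXN.

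The glutathione S-transferases, MGST included, held the largest rise with a fold of all members and 11 of the 15 calls of at least 1 on the log2 scale, and their classes were uneven within. Of the 17 tested cytosolic and kappa entries 12 rose and 2 fell, and of the 3 membrane-bound MGST entries 2 rose. Over all tested entries 32.5% rose and 25.9% fell. GSTT2, of the theta class (chromosome 17 from 73309906 to 73315353), was at 1.18, 0.850 and 0.836 FPKM in control and 22.5, 28.7 and 19.1 post butyrate, a 24.5-fold rise from a level near 1 FPKM (log2 fold change 4.47, standard error 0.19, limma with Benjamini-Hochberg adjusted p = 3.3e-07). GSTT1, beside it on the chromosome, started much higher and rose from 51.6, 47.3 and 41.0 to 142, 132 and 124, 2.84-fold (log2 fold change 1.51, standard error 0.09, limma with Benjamini-Hochberg adjusted p = 1.7e-06). GSTT4, the third theta gene, was at 2.66, 1.54 and 2.38 and 1.26, 1.88 and 1.66 and did not pass (log2 fold change -0.41, limma, Benjamini-Hochberg adjusted p = 0.193). The 3 theta entries lie in a row at one end of a stretch of 161 kb on chromosome 17 that ends with the gamma-glutamyltransferase genes GGT5 and GGT1, and 9 entries stand on it. Of those, GSTT4 was not called, a microRNA entry at 0 was not tested, and the other 7 rose, among them SUSD2, chosen here after its value was seen, from 0.0385 to 10.9 mean FPKM. The far end of the stretch was set at GGT5 and GGT1, which are themselves among these rises. The count is thus a description with no test, beside the 32.5% of all tested entries that rose.

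In the mu class, GSTM3 (chromosome 3 from 33768049 to 33770824) rose from 7.08, 7.64 and 5.56 to 45.6, 44.4 and 49.4 FPKM, 6.88-fold (log2 fold change 2.77, standard error 0.12, limma with Benjamini-Hochberg adjusted p = 3.4e-07). Both GSTM1 entries rose. The first (chromosome 3 from 33805750 to 33816442) went from 14.1, 13.3 and 12.1 to 33.2, 38.5 and 34.0 and the second (chromosome 3 from 33874015 to 33880641) from 12.3, 12.4 and 12.7 to 54.0, 52.6 and 48.0, with log2 fold changes of 1.41 and 2.04 (limma, Benjamini-Hochberg adjusted p = 2.5e-06 and 1.1e-07). GSTM2 lies between them and was low and not called, at 1.93, 2.02 and 2.42 in control and 3.20, 2.34 and 2.30 post butyrate (log2 fold change 0.28, standard error 0.19), and its sign turned under quantile normalization. Near-identical copies can exchange reads, and only uniquely mapped reads were counted, so the split between the GSTM1 entries is uncertain.

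GSTA2, an alpha-class enzyme that also reduces lipid hydroperoxides (chromosome 23 from 24823644 to 24837368), went from 1.35, 1.29 and 2.11 to 8.11, 8.08 and 9.25 FPKM, 5.36-fold (log2 fold change 2.38, standard error 0.20, limma with Benjamini-Hochberg adjusted p = 1.4e-05). The first GSTA3 entry (chromosome 23 from 24875604 to 24890466) was listed at 0 in each control culture and at 1.46, 1.93 and 0.915 post butyrate, so no fold is given. GSTA4, known for conjugating the lipid aldehyde 4-hydroxynonenal, was the most abundant alpha entry and rose from 47.4, 43.9 and 53.4 to 67.9, 76.9 and 66.3, only 1.46-fold (log2 fold change 0.55, standard error 0.09, limma with Benjamini-Hochberg adjusted p = 6.8e-04). The second GSTA3 entry was above 0 in 1 culture, at 0.188, and GSTA5 was at 0 throughout.

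The omega entries moved in opposite directions. The first GSTO1 entry (chromosome 26 from 25059642 to 25074215) fell from 22.2, 25.3 and 25.7 to 7.89, 7.49 and 8.08 FPKM, 3.12-fold (log2 fold change -1.63, standard error 0.09, limma with Benjamini-Hochberg adjusted p = 1.2e-06). The second (chromosome 26 from 25088447 to 25097722), under the same name, rose from 5.10, 5.94 and 6.43 to 18.0, 14.6 and 15.4, 2.75-fold (log2 fold change 1.44, standard error 0.12, limma with Benjamini-Hochberg adjusted p = 1.6e-05). Which entry led therefore changed: the first was the higher in 3 of 3 control cultures and the second in 3 of 3 treated cultures. GSTO2, next to the second entry, rose from 0.862, 0.661 and 1.55 to 3.44, 4.77 and 3.74 (log2 fold change 1.93, standard error 0.30, limma with Benjamini-Hochberg adjusted p = 5.6e-04). The later RefSeq gene set of ARS-UCD2.0 lists 1 GSTO1 symbol, and the assignment of reads between the entries is uncertain.

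**Figure D3:**
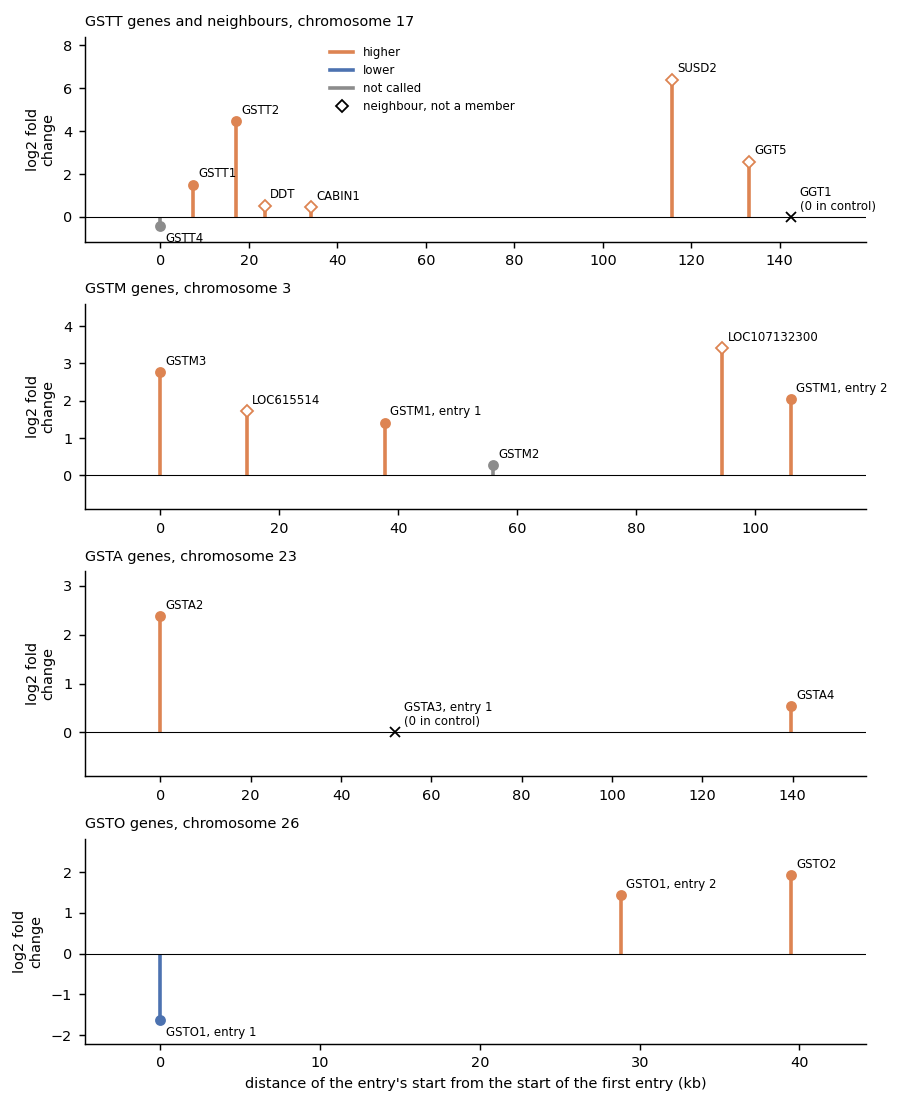
Log2 fold change of FPKM + 0.1, butyrate over control, of each tested entry against the distance of its start from the first entry of the cluster, in kb (filled, members of the GST family; open, neighbours). Nearby genes differ widely, as GSTT4 at -0.41 and GSTT2 at 4.47, which start 17.2 kb apart, and crosses mark entries listed at 0 in every control culture, which have no fold.

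MGST1, a microsomal enzyme with peroxidase activity (chromosome 5 from 93925154 to 93950175), rose 2.17-fold from 71.6, 70.8 and 59.5 to 146, 156 and 137 FPKM (log2 fold change 1.12, standard error 0.08, limma with Benjamini-Hochberg adjusted p = 6.1e-06). MGST3 rose 1.29-fold from a mean of 111 ± 9.86 (SD, n = 3), and MGST2, at 16.9 ± 1.36 (SD, n = 3) in control and 16.5 ± 0.981 (SD, n = 3) post butyrate, did not pass. GSTK1, the mitochondrial and peroxisomal kappa enzyme, rose 1.29-fold (limma, Benjamini-Hochberg adjusted p = 0.0217), a call lost when any of 5 of the 6 cultures was left out. GSTZ1, which acts in tyrosine breakdown, fell 1.49-fold from 11 ± 0.408 (SD, n = 3).

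GSTP1 dominated the family. Its second entry (chromosome 29 from 46087141 to 46090009) was at 654, 681 and 678 FPKM in control and 603, 669 and 611 post butyrate, with overlapping groups and no call (log2 fold change -0.10, limma, Benjamini-Hochberg adjusted p = 0.105). Its sign turned under TPM rescaling and quantile normalization, and it was called lower without butyrate replicate 2 (log2 fold change -0.14). The first entry was far lower and rose from 32.2 ± 2.88 (SD, n = 3) to 42.0 ± 0.253 (SD, n = 3) (limma, Benjamini-Hochberg adjusted p = 0.00198). Summed over the 22 GST and MGST entries, FPKM was 1124, 1125 and 1134 in control and 1427, 1528 and 1404 post butyrate, a ratio of means of 1.29. Without the GSTP1 entries the ratio was 1.84. The second GSTP1 entry made up 58.1 to 60.5% of the summed FPKM in control and 42.3 to 43.8% post butyrate, while GSTT1 went from 3.62 to 4.59% to 8.61 to 9.93% and MGST1 from 5.25 to 6.37% to 9.73 to 10.2%. The total thus grew through members other than GSTP1, which still had the largest share.

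**Figure D4:**
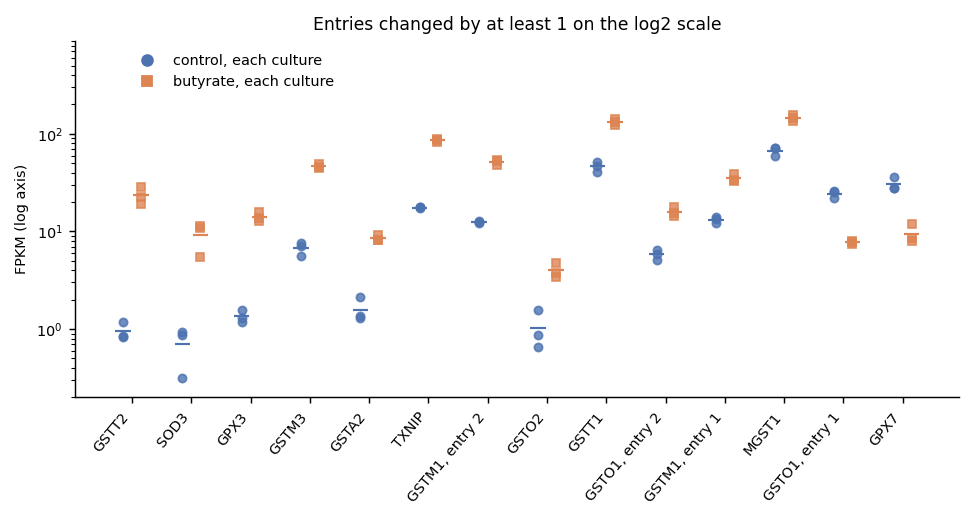
FPKM on a log axis of 14 entries called with a log2 fold change of at least 1 in either direction, 1 point per culture and a line at the group mean (circles control, squares butyrate). No groups overlap, and the first GSTO1 entry and GPX7 are the only ones lower post butyrate; the first GSTA3 entry, at 0 in control, is not drawn.

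The glutathione peroxidases split by member. GPX3, the secreted plasma enzyme (chromosome 7 from 64286947 to 64295117), rose from 1.56, 1.19 and 1.29 to 12.9, 15.8 and 13.7 FPKM, 10.5-fold (log2 fold change 3.30, standard error 0.15, limma with Benjamini-Hochberg adjusted p = 4.4e-07). GPX7, a peroxidase of the endoplasmic reticulum that uses protein disulfide isomerase more than glutathione (chromosome 3 from 94323975 to 94331673), fell from 27.8, 28 and 36.0 to 7.93, 8.5 and 11.9, 3.24-fold (log2 fold change -1.70, standard error 0.16, limma with Benjamini-Hochberg adjusted p = 3.5e-05). GPX8, its relative in the same organelle, fell less, from 131, 121 and 135 to 97.6, 92.6 and 101 (log2 fold change -0.41, standard error 0.06, limma with Benjamini-Hochberg adjusted p = 3.5e-04). The FPKM ratio of GPX3 to GPX7 went from 0.0562, 0.0425 and 0.0360 in control to 1.63, 1.85 and 1.15.

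The abundant members of the family were less mobile. GPX4, which reduces phospholipid hydroperoxides in membranes and guards against ferroptosis, rose from 612, 633 and 627 to 925, 951 and 912 FPKM, 1.49-fold (log2 fold change 0.57, standard error 0.03, limma with Benjamini-Hochberg adjusted p = 1.7e-06). GPX1, the main cytosolic enzyme, rose from 961, 965 and 973 to 1083, 1042 and 1116, a 1.12-fold change (log2 fold change 0.16, standard error 0.04, limma with Benjamini-Hochberg adjusted p = 0.00411), and the call was lost in the fit with no trend (limma, Benjamini-Hochberg adjusted p = 0.0816). GPX1 and GPX4 together carried most of the family's FPKM, and GPX4 went from 35.3 to 36.2% of it in control to 42.3 to 45.0% post butyrate. GPX2 stayed at or below 0.506 FPKM and GPX6 at or below 0.339, and neither passed (limma, Benjamini-Hochberg adjusted p = 0.701 and 0.0754). The half-width of the deposited confidence interval of GPX2 was 121% of its FPKM in the median culture. The limma 95% interval of its log2 fold change ran from -1.18 to 0.77. GPX5 was at 0, and GPX5 and GPX6 overlap each other and SPATA16 in these gene models.

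Peroxiredoxins were the most abundant group and moved by small steps. PRDX2, a cytosolic member (chromosome 7 from 13844491 to 13848481), rose from 1417, 1428 and 1424 to 1796, 1760.3 and 1785 FPKM (log2 fold change 0.32, standard error 0.03, limma with Benjamini-Hochberg adjusted p = 2.0e-05). PRDX5, found in mitochondria, peroxisomes and the cytosol, rose from 253, 236 and 248 to 335, 346 and 342 (log2 fold change 0.47, standard error 0.04, limma with Benjamini-Hochberg adjusted p = 1.7e-05). PRDX4, the member of the secretory pathway (chromosome X from 126551741 to 126564705), fell from 237, 240.2 and 245 to 149, 149 and 156, 1.59-fold (log2 fold change -0.67, standard error 0.04, limma with Benjamini-Hochberg adjusted p = 1.9e-06). PRDX6, which draws on glutathione and not thioredoxin, fell 1.29-fold from 368 ± 10.4 (SD, n = 3) to 286 ± 13.8 (SD, n = 3). Mitochondrial PRDX3 fell 1.17-fold (limma, Benjamini-Hochberg adjusted p = 0.0139), a call lost under TPM rescaling, under quantile normalization, with no trend and without butyrate replicate 3. PRDX1 was at 1007, 967 and 999.9 in control and 957, 1032 and 969 post butyrate and did not pass (log2 fold change -0.01, 95% interval -0.10 to 0.08), but rose by 0.12 under either of those scalings. The 6 genes summed to 3355, 3318 and 3386 FPKM in control and to 3584, 3661 and 3605 post butyrate, a ratio of 1.08, within which PRDX2 went from 42.1 to 43.0% to 48.1 to 50.1% and PRDX4 from 7.06 to 7.24% to 4.08 to 4.32%.

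**Figure D5:**
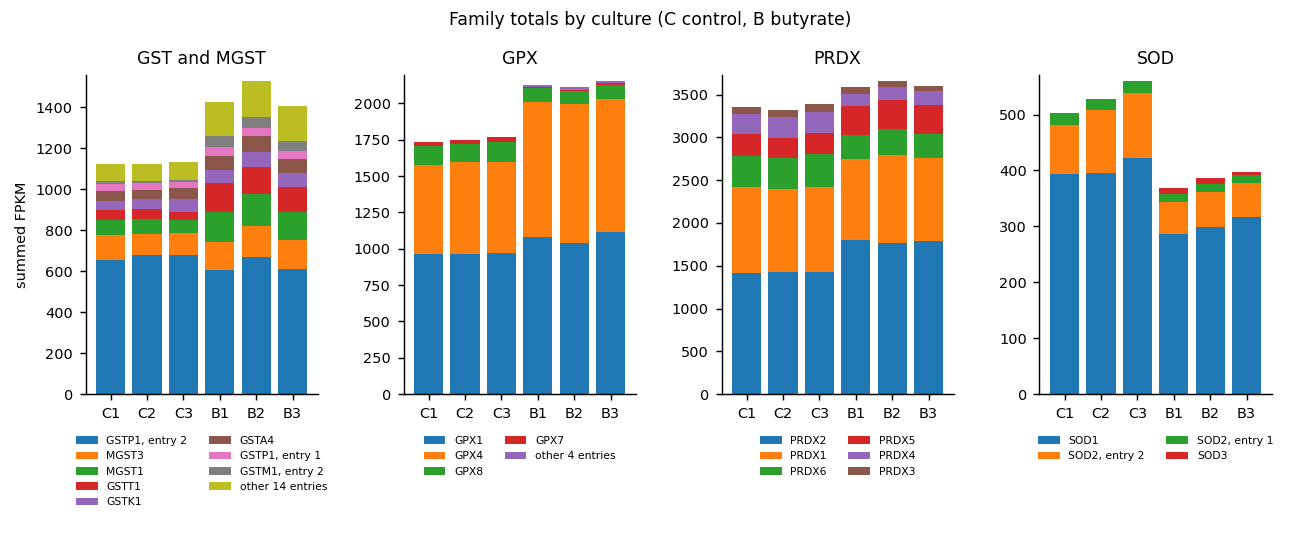
Summed FPKM of each family in each culture (C1 to C3 control, B1 to B3 butyrate), stacked by entry. The GST, GPX and PRDX totals are higher post butyrate, by ratios of 1.29, 1.22 and 1.08, and the SOD total is lower, at 0.724 times control.

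In the thioredoxin system the inhibitor rose while the carrier fell. TXNIP, an arrestin-like protein that binds reduced thioredoxin and limits glucose uptake (chromosome 3 from 21489096 to 21493258), rose from 17.2, 17.6 and 17.9 to 82.4, 87.8 and 87.0 FPKM, 4.87-fold (log2 fold change 2.28, standard error 0.06, limma with Benjamini-Hochberg adjusted p = 3.2e-08). TXN, the cytosolic thioredoxin (chromosome 8 from 101484820 to 101492586), fell from 748, 686 and 694 to 491, 442 and 477, 1.51-fold (log2 fold change -0.59, standard error 0.05, limma with Benjamini-Hochberg adjusted p = 1.8e-05). TXN still exceeded TXNIP in every culture, and the ratio of TXNIP to TXN went from 0.0231, 0.0257 and 0.0258 in control to 0.168, 0.199 and 0.182 post butyrate.

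The reductases also diverged. TXNRD1, the cytosolic selenoenzyme that recharges TXN with NADPH (chromosome 5 from 68239610 to 68302679), rose from 77.0, 73.5 and 74.4 to 144, 140.3 and 129 FPKM, 1.84-fold (log2 fold change 0.87, standard error 0.05, limma with Benjamini-Hochberg adjusted p = 2.3e-06). TXNRD2, its mitochondrial counterpart, fell from 31.2 ± 1.33 (SD, n = 3) to 19.4 ± 1.12 (SD, n = 3), 1.61-fold (log2 fold change -0.69, standard error 0.07, limma with Benjamini-Hochberg adjusted p = 5.6e-05), and the ratio of the former to the latter moved from 2.59, 2.29 and 2.33 to 7.05, 7.14 and 7.11. TXN2, the mitochondrial thioredoxin, was at 234 ± 8.28 (SD, n = 3) and 254 ± 9.69 (SD, n = 3) and just missed the threshold (log2 fold change 0.12, limma, Benjamini-Hochberg adjusted p = 0.0512). TXNRD3 fell from 4.57 ± 0.819 (SD, n = 3) to 3.01 ± 0.805 (SD, n = 3) with overlapping groups, a call at adjusted p = 0.0457 in limma that was lost without control replicate 1 or 3 or butyrate replicate 2 or 3, and with a pseudocount of 0.01, no filter on low values, TPM rescaling or no trend (adjusted p from 0.0525 to 0.159). The TXNRD1 entry spans EID3, at 3.44 mean FPKM in control and 2.86 post butyrate.

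Superoxide dismutases turn superoxide into hydrogen peroxide, and catalase breaks the peroxide down. SOD3, the extracellular enzyme (chromosome 6 from 45909830 to 45930828), rose from 0.872, 0.928 and 0.314 to 11.3, 10.8 and 5.52 FPKM, 13.1-fold (log2 fold change 3.57, standard error 0.40, limma with Benjamini-Hochberg adjusted p = 8.2e-05), with butyrate replicate 3 well below the other treated cultures but above each control. SOD1, the cytosolic copper-zinc enzyme (chromosome 1 from 3113947 to 3122613), fell from 393, 396 and 423 to 287, 299.6 and 316, 1.34-fold (log2 fold change -0.43, standard error 0.05, limma with Benjamini-Hochberg adjusted p = 9.3e-05). Both entries named SOD2, the mitochondrial manganese enzyme, fell. The second (chromosome 9 from 97399158 to 97404521) went from 88.1, 111 and 116 to 56.5, 61.8 and 61.9 (log2 fold change -0.80, standard error 0.10, limma with Benjamini-Hochberg adjusted p = 1.7e-04), and the first (chromosome 9 from 97390516 to 97395406) from 20.8, 19.5 and 21.0 to 14.0, 15.1 and 13.8 (log2 fold change -0.51, standard error 0.08, limma with Benjamini-Hochberg adjusted p = 4.4e-04). The later RefSeq set lists 1 SOD2 symbol, and the assignment of reads between the entries is uncertain. CAT (chromosome 15 from 65779324 to 65815272) rose from 51.1, 51.5 and 56.5 to 83.8, 91.5 and 86.7, 1.65-fold (log2 fold change 0.72, standard error 0.06, limma with Benjamini-Hochberg adjusted p = 1.5e-05). The CAT to SOD1 ratio was 0.130, 0.130 and 0.134 in control and 0.292, 0.305 and 0.274 post butyrate.

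The other genes of these pathways were read from 4 lists. Of 89 tested genes on them 36 rose and 23 fell, which is 66.3% called, beside 58.4% of all tested entries. A mean FPKM of at least 10 was reached by 66 of the 89. Of all tested entries at that level 74.0% were called, so the 58.4% is a low reference and no excess of calls is shown. Of 26 tested genes of glutathione supply, salvage and use, 12 rose and 6 fell, which is 69.2% called. The 6 falls, named after their values were seen, were those of CTH, GGCT, GLO1, GLRX3, GLRX5 and GSTCD. CTH fell furthest, from 32.5 ± 0.383 (SD, n = 3) to 7.22 ± 1.79 (SD, n = 3) FPKM (log2 fold change -2.19, standard error 0.16, limma with Benjamini-Hochberg adjusted p = 6.6e-06). The gamma-glutamyltransferases, which open extracellular glutathione for salvage, included GGT7, a family member of uncertain activity, from 0.547, 0.453 and 0.454 to 16.5, 20.1 and 18.9 FPKM (log2 fold change 4.99, standard error 0.15, limma with Benjamini-Hochberg adjusted p = 7.7e-08), and GGT5, from 1.14, 0.448 and 0.544 to 3.26, 5.07 and 5.25 (log2 fold change 2.58, standard error 0.34, limma with Benjamini-Hochberg adjusted p = 2.0e-04). GGT6, the other one listed, was at 3.18 ± 0.916 (SD, n = 3) and 2.53 ± 0.386 (SD, n = 3) and did not pass (limma, Benjamini-Hochberg adjusted p = 0.288). GGT1 was listed at 0 in each control culture and at 7.18, 6.91 and 6.27 post butyrate. LTC4S, which joins glutathione to leukotriene A4, was at 0.558, 0 and 0.501 and then 42.6, 59.7 and 35.5 (log2 fold change 7.05, standard error 0.64, limma with Benjamini-Hochberg adjusted p = 2.4e-05). SLC7A11, the cystine importer and a reported NRF2 target, was low, at 0.0266, 0.227 and 0.217 and 0.483, 0.461 and 0.451, and rose by 1.26 on the log2 scale (limma, Benjamini-Hochberg adjusted p = 0.0384).

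Of the 24 thioredoxin partners and thiol repair genes, 7 rose and 7 fell, which is 58.3% called, beside 58.4% of all tested entries. A mean FPKM of at least 10 was reached by 16 of the 24, and 74.0% of all tested entries at that level were called. ARRDC4, an arrestin-domain relative of TXNIP that also limits glucose uptake, rose from 3.52, 3.80 and 4.31 to 14.3, 13.9 and 12.9 FPKM (log2 fold change 1.80, standard error 0.11, limma with Benjamini-Hochberg adjusted p = 2.5e-06). RRM2 and RRM1, subunits of ribonucleotide reductase, an electron acceptor of thioredoxin in DNA synthesis, fell, RRM2 going from 146, 139 and 151 to 5.29, 6.05 and 4.26 and RRM1 from 47.6 ± 1.17 (SD, n = 3) to 15.7 ± 0.194 (SD, n = 3) (limma, Benjamini-Hochberg adjusted p = 3.2e-08 and 1.7e-07). RRM2B, the alternative small subunit, rose from 2.82 ± 0.691 (SD, n = 3) to 4.74 ± 0.526 (SD, n = 3) (limma, Benjamini-Hochberg adjusted p = 0.00925) and was named after its value was seen. MSRA, a methionine sulfoxide reductase, fell 2.95-fold from 38.4 ± 1.35 (SD, n = 3) (limma, Benjamini-Hochberg adjusted p = 2.0e-05). SRXN1, which repairs over-oxidized peroxiredoxins and is a reported NRF2 target, was at 17.6, 16.0 and 13.5 and 15.9, 19.4 and 17.1 and did not pass (limma, Benjamini-Hochberg adjusted p = 0.284).

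NADPH powers both systems, and 5 of 14 tested genes of its supply rose and 5 fell. That is 71.4% called, beside 58.4% of all tested entries. Of the 14 genes, 13 had a mean FPKM of at least 10. At that level 74.0% of all tested entries were called, so no excess of calls is shown. The mitochondrial enzymes of the list moved both ways. IDH2 fell from 171 ± 4.06 (SD, n = 3) to 84.7 ± 2.85 (SD, n = 3) FPKM (log2 fold change -1.02, standard error 0.05, limma with Benjamini-Hochberg adjusted p = 4.5e-07) and MTHFD2 fell 1.87-fold (limma, Benjamini-Hochberg adjusted p = 3.1e-05), whereas ALDH1L2 rose from 2.55, 2.92 and 3.09 to 12, 10.6 and 11.1 (log2 fold change 1.94, standard error 0.12, limma with Benjamini-Hochberg adjusted p = 2.6e-06). MTHFD1, the cytosolic folate enzyme, fell 4.72-fold from 43.2 ± 0.395 (SD, n = 3) (limma, Benjamini-Hochberg adjusted p = 1.3e-07).

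Of 25 tested partners, relatives and reported targets of NRF2, 12 rose and 5 fell. That is 68% called, beside 58.4% of all tested entries. A mean FPKM of at least 10 was reached by 20 of the 25. Of all tested entries at that level 74.0% were called, so no excess of calls is shown. NFE2L3, a relative of NFE2L2 that was nearly silent in control, went from 0.0979, 0.174 and 0.167 to 3.28, 3.20 and 2.73 FPKM (log2 fold change 3.70, standard error 0.26, limma with Benjamini-Hochberg adjusted p = 4.7e-06). EPHX1, microsomal epoxide hydrolase, rose from 10.8, 9.92 and 11.7 to 63.0, 72.9 and 63.1, 6.13-fold (log2 fold change 2.60, standard error 0.09, limma with Benjamini-Hochberg adjusted p = 1.2e-07), and PIR, an iron-binding nuclear protein, rose 2.88-fold from 6.17 ± 1.45 (SD, n = 3) (limma, Benjamini-Hochberg adjusted p = 7.1e-05). MAFF, a small MAF protein that pairs with NRF2 on DNA, fell from 5.88, 5.28 and 6.26 to 2.27, 2.07 and 1.93 (log2 fold change -1.43, standard error 0.14, limma with Benjamini-Hochberg adjusted p = 4.0e-05). Other falls were those of MAFG and MAFK, also small MAF proteins, and RBX1, a subunit of the ligase that KEAP1 serves. UGDH, a reported target, fell as well (log2 fold change -0.53, limma, Benjamini-Hochberg adjusted p = 1.6e-04). The other rises were those of NFE2L1, ABCC3, AKR1B1, BLVRA, BLVRB, FTH1, FTL, NQO2 and SQSTM1. Their log2 fold changes ran from 0.36 for FTL to 1.12 for NQO2. The genes of these other falls and rises were named after their values were seen.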

How the data were processed

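RNA of 3 butyrate-treated and 3 control REPC cultures was sequenced, paired-end, from TruSeq libraries. Per the labels and the methods, the authors trimmed reads with Trim Galore 0.4.1, aligned them with STAR to UMD3.1 and kept uniquely mapped reads, and deposited Cufflinks gene-level FPKM with confidence bounds, 1 table per culture. Strand use in counting is not given in the sources used here. Chromosomes were assigned to sequences by the majority of gene names in the RefSeq table of ARS-UCD2.0, in which 48 of the 49 member names were symbols and GSTM1 a synonym. Its coordinates were not used.

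Tables were joined by entry, name and position, and 2 genes with a failed estimate were removed. A linear model with a variance trend over expression (limma 3.58.1, R 4.3.3) was fitted to log2(FPKM + 0.1) over the 15813 entries with a mean FPKM of at least 0.1, so fold changes on this scale understate those of low genes. FPKM are not counts, hence no count test was used. Folds given as such are ratios of group means. The fit was tested on simulated data. The members and lists were chosen with earlier results of these data known, and the lists got no test of their own. Every member could be named. By rule, values by culture were given for members called with a log2 change of at least 1 and for NFE2L2, KEAP1, GCLC, GCLM, GSR, NQO1, HMOX1, SOD1, SOD2, CAT, TXN, TXNRD1 and TXNIP. Those of other members were added after their values were seen. Companions were the 4 called genes of each list with the largest change, with SLC7A11 and SRXN1 added. Other companions were added after their values were seen. A further gene of the rule is not reported here. Alternatives were other pseudocounts (0.01 and 1), filters, scalings, no trend, a replicate block and leaving out each culture. No genome or sequence table was used, so no sequences are shown.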

Additional observations from a re-analysis of the deposited data

How the results depend on the processing

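Counts of members and of companion genes called in each direction stayed within 1.5 times their value under each of the 9 alternatives that kept all cultures. Leaving out each culture, 24 to 26 members rose and 15 to 17 fell, 32 to 36 companion genes rose and 21 to 23 fell, and 5 to 6 members rose past the DEG thresholds and 0 fell past them. With all cultures 4 to 6 rose past them, the 4 with a pseudocount of 1, where GSTA2 (1.89) and the second GSTM1 entry (1.96) stayed below 2. Of the 42 called members, 38 kept their call and direction in each of the 15 alternatives that tested them, 23 higher and 15 lower, and the exceptions were GPX1, GSTK1, PRDX3 and TXNRD3.

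The sign turned only for members that were not called. Under TPM rescaling the log2 fold change was 0.028 for the second GSTP1 entry, 0.086 for MGST2 and 0.12 for PRDX1. Under quantile normalization it was 0.21 for the second GSTP1 entry, 0.12 for PRDX1 and -0.023 for GSTM2. With a culture left out it ranged from -0.54 to 0.067 for GPX2, from -0.11 to 0.011 for MGST2 and from -0.042 to 0.013 for PRDX1. PRDX1 passed the threshold under both scalings. The second GSTP1 entry passed as higher under quantile normalization and as lower under median ratio scaling (-0.14). A mean FPKM minimum of 1 left GPX2, GPX6 and the first GSTA3 entry untested. The cause of these changes was not tested. Of the other members not called, TXN2 passed under 3 and HMOX1 under 2 alternatives with all cultures, TXN2 also without control replicate 3, GSTT4 as lower under quantile normalization (-0.77) and GPX6 as higher without control replicate 2 (1.64). TPM rescaling and quantile normalization moved the median of all genes by 0.12 and -0.13.

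Replicate numbers do not pair the cultures, as deviations of same-numbered cultures correlated at -0.0043 to 0.023 across genes, and of the 3 numbers only for number 1 did both cultures correlate best with each other. With a replicate block, 26 members rose and 17 fell, HMOX1 being added at a log2 fold change of 0.24 (limma, Benjamini-Hochberg adjusted p = 0.0397). Low FPKM limits GPX2, GPX6, GSTT4 and GSTM2. It also limits the size of the rises of SOD3, the first GSTA3 entry, GSTT2, GSTO2 and GSTA2. Their deposited confidence intervals reached 76.8, 70.7, 51.0, 48.3 and 39.5% of the FPKM to either side, beside 34.6% for GSTM2. These are medians over the cultures above 0.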
